A study of Mus musculus with 6 samples.

Results

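Cholesterol and fatty acid synthesis were followed through 35 named genes in HL-1, a line grown from a tumour of mouse atrial muscle, after transfection of an HSPA1A overexpression plasmid. The genes were listed by name and role: 7 for the mevalonate steps, 11 for the squalene and sterol steps, 6 for the control of SREBP and sterol transport, 6 for fatty acid synthesis and 5 for the LXR receptors and their targets. All 35 were among the 22913 genes with reads, and 33 had enough reads to be tested. The exceptions were Nr1h3 and Abcg1. Polyadenylated RNA was sequenced from 3 samples with a control plasmid and 3 with the HSPA1A plasmid. Both groups were the same line, both plasmids were delivered with Lipofectamine 2000, a lipid reagent, and cells were harvested after 48 h. The labels call the transfected gene human, name no other allele or agent, and do not say whether replicates were separate cultures. The p-values therefore rest on the spread among these libraries, and that spread may be technical.

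Cells make cholesterol from acetyl-CoA through mevalonate, squalene and lanosterol. The enzymes are switched on together by SREBP transcription factors, which the escort protein SCAP carries from the endoplasmic reticulum to the Golgi when sterols are scarce and which INSIG proteins hold back when sterols are plentiful. SREBP also drives fatty acid synthesis, whereas the LXR receptors sense oxysterols and switch on cholesterol export, and heart muscle cells use these lipids for membranes and burn fatty acids as fuel.

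The libraries held from 23849656 to 26897086 counts. Levels below are CPM, read counts scaled by TMM to a common library size, or FPKM where genes are compared per length. HSPA1A replicate 2 stood apart from the others of its group, at -15.1 on the first principal component of all tested genes (34.3% of the variance), with replicates 1 and 3 at 15.9 and 18.3 and the control libraries between -8.27 and -4.33. Results are therefore given with and without it. Mouse Hspa1a had 10 to 17 reads in the control and 11 to 20 in the HSPA1A libraries, and the reads of the transfected human gene were not analysed here, so these values do not check the transfection. The noncoding RNA Yam1 took 1.86, 1.18 and 1.23% of counts in the controls and 2.70, 1.58 and 2.53% in HSPA1A replicates 1 to 3. Of 12 heart muscle markers, 10 were listed, all but Myl7 and Sln, and 5 averaged at least 1 CPM. Des, Gata4, Tnnt2, Nkx2-5 and Myl4 were present, while Actc1, Ryr2, Tnni3 and Tbx5 averaged under 0.2 CPM. The heart muscle markers summed to between 709 and 730.2 CPM in control and between 638 and 677 CPM in HSPA1A libraries. Des alone made most of this sum, at 625, 653 and 655 CPM in control and 605, 579 and 565 CPM in HSPA1A libraries. Tnnt2 and Gata4 overlapped between the groups and were highest in HSPA1A replicate 2, at 55.2 and 35.9 CPM. The part of the difference in the sum in the results below was not tested. Of 6 fibroblast markers, 5 averaged at least 1 CPM, and their sum ranged from 850.2 to 886 CPM in control and from 786 to 927 CPM in HSPA1A libraries. Listed markers of endothelial cells, fat cells, hepatocytes and macrophages summed to at most 7.24 CPM per list, and no marker was called. In bulk RNA, fewer cells of a type and less RNA per cell cannot be told apart.

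The promoters of the SREBP targets shared a sequence feature that the choice of genes did not use. The windows ran from 250 bases before to 50 bases after the start site (RefSeq, GRCm38.p6), both strands were searched, and 28 of the 35 members had an entry. SREBP targets are here the 18 sterol synthesis enzymes with Insig1 and Stard4. The NF-Y box CCAAT, bound by a factor that works beside SREBP, was in 15 of the 16 SREBP targets with an entry (93.8%), all but Acat2. It was in 43.5% of the 9207 tested genes with an entry and in 37.4% of all 32851 promoters. The strict sterol regulatory element TCACNCCAC was in 1 of those 16 genes, Hmgcs1, at base -137 from the start. It was in 1.41% of the tested genes with an entry and in 1.24% of all promoters. DR4, the LXR site of AGGTCA repeated after 4 bases, was in 0.015% of all promoters and in none of the 28. Hmgcs1 (chr13:119690101-119690400 on the plus strand) is shown for its sterol element and 4 NF-Y boxes. Idi1 (chr13:8885356-8885655 on the plus strand) and Mvd (chr8:122443373-122443672 on the minus strand) were chosen after their values were seen, as the SREBP targets with an NF-Y box here whose HSPA1A libraries differed most, and Mylip (chr13:45389492-45389791 on the plus strand) as the most abundant LXR target. Capitals mark the sterol element, which is the one capital run of 9 bases, and the NF-Y boxes, which read CCAAT or, on the other strand, ATTGG.
Hmgcs1: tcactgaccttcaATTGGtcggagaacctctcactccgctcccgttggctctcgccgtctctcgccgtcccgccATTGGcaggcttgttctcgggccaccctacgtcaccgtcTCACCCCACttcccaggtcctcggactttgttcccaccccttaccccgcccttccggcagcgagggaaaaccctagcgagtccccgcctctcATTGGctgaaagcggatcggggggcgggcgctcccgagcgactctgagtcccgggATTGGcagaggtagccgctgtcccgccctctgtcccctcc
Idi1: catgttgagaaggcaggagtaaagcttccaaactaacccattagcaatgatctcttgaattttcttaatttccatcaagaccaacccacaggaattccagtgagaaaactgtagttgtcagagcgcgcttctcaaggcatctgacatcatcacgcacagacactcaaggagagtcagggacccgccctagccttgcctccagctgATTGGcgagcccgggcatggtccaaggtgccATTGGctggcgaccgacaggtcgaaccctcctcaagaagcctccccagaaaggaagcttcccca
Mvd: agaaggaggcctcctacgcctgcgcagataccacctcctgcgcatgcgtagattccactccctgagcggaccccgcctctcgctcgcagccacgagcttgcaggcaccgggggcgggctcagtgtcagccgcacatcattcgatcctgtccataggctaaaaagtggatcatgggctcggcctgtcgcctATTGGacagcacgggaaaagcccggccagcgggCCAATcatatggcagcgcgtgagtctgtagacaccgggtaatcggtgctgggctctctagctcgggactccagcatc
Mylip: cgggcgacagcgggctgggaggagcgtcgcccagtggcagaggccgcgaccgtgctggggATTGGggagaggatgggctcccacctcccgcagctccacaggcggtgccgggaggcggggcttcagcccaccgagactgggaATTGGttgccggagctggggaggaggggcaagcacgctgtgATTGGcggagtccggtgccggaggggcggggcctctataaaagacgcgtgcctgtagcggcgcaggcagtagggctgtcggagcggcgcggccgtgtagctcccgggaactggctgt
Mylip, an LXR target, also held NF-Y boxes, and Abca1 held none, so the box was not limited to SREBP targets. These matches describe the sequence and do not show that a factor was bound.

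Per length, the members with the highest control means were Msmo1, Sqle, Scd2, Scd1 and Fdft1, and those with the lowest were Mylip, Nr1h3, Abca1 and Abcg1. In the control libraries 5 members averaged at least 50 FPKM, 14 between 10 and 50, 12 between 1 and 10, and 4 under 1 FPKM. At the top stood Msmo1, a methylsterol oxidase, at 96.6, 93.2 and 97.7 FPKM in the control and 79.01, 109 and 85.4 FPKM in the HSPA1A libraries. Sqle, squalene epoxidase and a rate-controlling step, Scd2 and Scd1, which put the double bond into saturated fatty acids, and Fdft1, squalene synthase, followed. In controls Sqle (82.95 to 85.8 FPKM), Scd2 (73.9 to 90.2 FPKM) and Scd1 (74.4 to 82.96 FPKM) overlapped in that order, while Fdft1 (61.5 to 62.9 FPKM) lay below them. Srebf2, the gene of the main sterol SREBP, was at 32.8, 32.1 and 32.4 FPKM in controls, and Srebf1 at 5.51, 5.26 and 5.28 FPKM. Insig2 stood at 24.7, 23.6 and 24.5 FPKM, above Insig1 at 14.9, 13.9 and 12.9 FPKM, with no overlap between these paralogs in controls. The LXR-beta gene Nr1h2 was at 20.01, 21.5 and 21.4 FPKM, whereas the LXR-alpha gene Nr1h3 was between 0.05 and 0.21 FPKM over all 6 libraries. Of the LXR targets, Mylip was at 1.01, 0.79 and 0.88 FPKM in controls and Abca1 at 0.05, 0.04 and 0.06 FPKM. Abcg1 had at most 4 reads in any library and was listed at 0 in HSPA1A replicates 2 and 3.

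**Figure D1:**
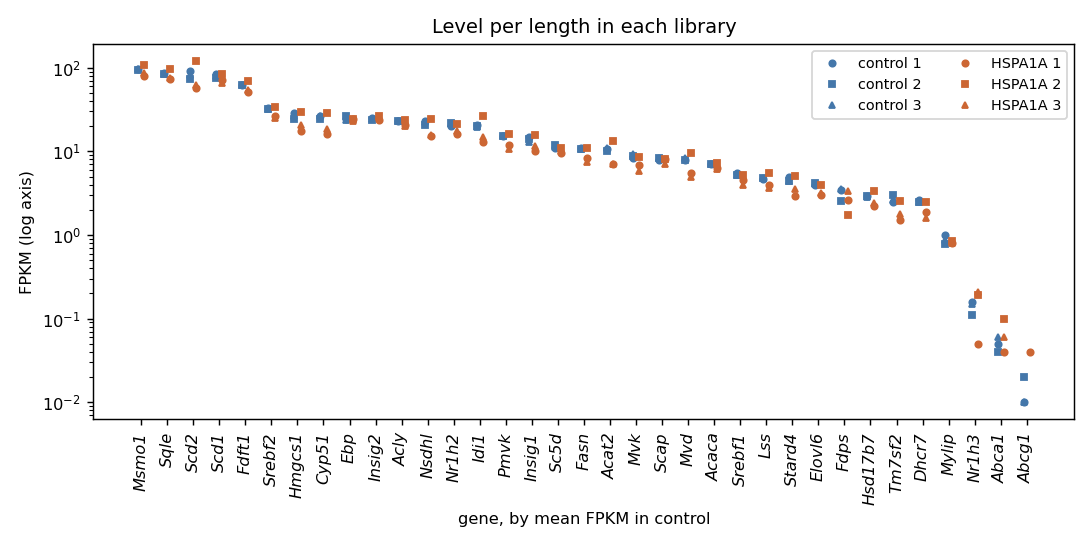
FPKM of the 35 members in each library on a log axis, ordered by the control mean, with controls in blue and HSPA1A libraries in orange. Msmo1, Sqle, Scd2, Scd1 and Fdft1 averaged at least 50 FPKM in controls and Nr1h3, Abca1 and Abcg1 lay far below the rest; Abcg1 points listed at 0 cannot be drawn.

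Over all 6 libraries no member passed an adjusted p of 0.05 in either direction by edgeR's quasi-likelihood test. Of all tested genes 0.156% were called lower and 0.0234% higher. DESeq2 and limma-voom also called 0 members. At an unadjusted p under 0.05 in edgeR, 3 of the 33 tested members were lower (Elovl6, Mvk and Tm7sf2) and 0 higher, against 4.26% of all tested genes lower. The log2 fold change was below 0 for 29 of 33, with a median of -0.12 beside 0.0029 over all tested genes. In 2 members, Elovl6 and Sc5d, all HSPA1A libraries lay below all control libraries, which is 6.06% of the tested members against 7.17% of all tested genes.

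The HSPA1A libraries differed from each other in direction. Replicate 1 lay below every control library in 26 of the 33 tested members (78.8%), where 32.4% of all tested genes did so. Replicate 3 lay below every control library in 28 (84.8%), against 33.5% of all tested genes. Replicate 2 lay above every control library in 23 (69.7%), against 31.4%. The 3 patterns held at once in 20 members (60.6%), against 7.17% of all tested genes. These were 5 of 7 mevalonate genes, 7 of 11 squalene and sterol genes, 3 of 6 SREBP control genes, 4 of 6 fatty acid genes and Nr1h2. The directions were read from these same libraries, and genes switched on together are not separate observations. In raw counts the 35 genes took 0.293, 0.271 and 0.282% of all reads in the controls and 0.231, 0.326 and 0.234% in HSPA1A replicates 1 to 3. The other 13 members lacked at least 1 of the 3 patterns. In Mvk, Tm7sf2, Sc5d, Dhcr7, Srebf1 and Elovl6 replicates 1 and 3 lay below all controls but replicate 2 did not lie above them. Fdps, Ebp, Insig2, Abca1 and Mylip were not below all controls in replicate 1 or 3, and Scap and Scd1 were not in replicate 1. The share of Yam1 was highest in HSPA1A replicates 1 and 3, where the 35 genes took the smallest shares of reads. Among the controls, replicate 1 had the most Yam1 (1.86%) and the largest share of these genes. HSPA1A replicate 2 had more Yam1 (1.58%) than control replicates 2 and 3 and the largest share of these genes of all libraries. The part of Yam1 in these levels was not tested. A fit with Yam1 as a covariate is given with the SREBP targets. Yam1 was higher in HSPA1A replicates 1 and 3 than in any control, so that fit cannot separate Yam1 from the plasmid.

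**Figure D2:**
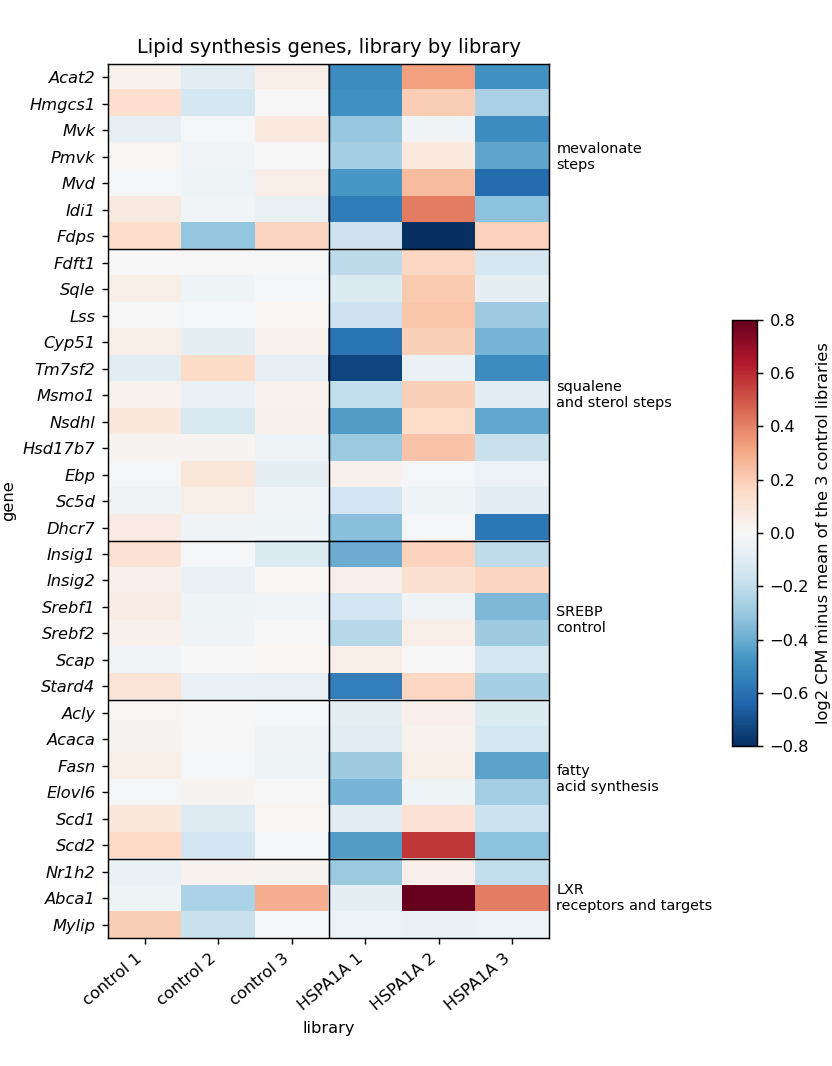
Each cell is log2 CPM minus the mean of the 3 control libraries for 1 of the 33 tested members (rows, by role) in 1 library (columns); red is higher and blue lower than the control mean, and colours end at -0.8 and 0.8. Most rows are blue in HSPA1A replicates 1 and 3 and red in replicate 2, in 20 members beyond all control libraries in each case.

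Without HSPA1A replicate 2, edgeR's quasi-likelihood test called 19 of the 33 tested members lower (57.6%) and 0 higher. That fit called 4.94% of all tested genes lower and 5.27% higher, so many genes outside lipid synthesis also passed there. The 19 were 6 mevalonate genes, 5 squalene and sterol genes, 4 SREBP control genes, 3 fatty acid genes and Nr1h2. The median over the members was -0.25, beside 0.0030 over all tested genes. HSPA1A replicate 2 was left out because of its place over all tested genes, these members included, and 2 HSPA1A libraries then stand against 3 controls. No member was called when any one of the other 5 libraries was left out in its place. Within the HSPA1A group the labels differ in the replicate number alone, so no label sets HSPA1A replicate 2 apart from replicates 1 and 3.

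**Figure D3:**
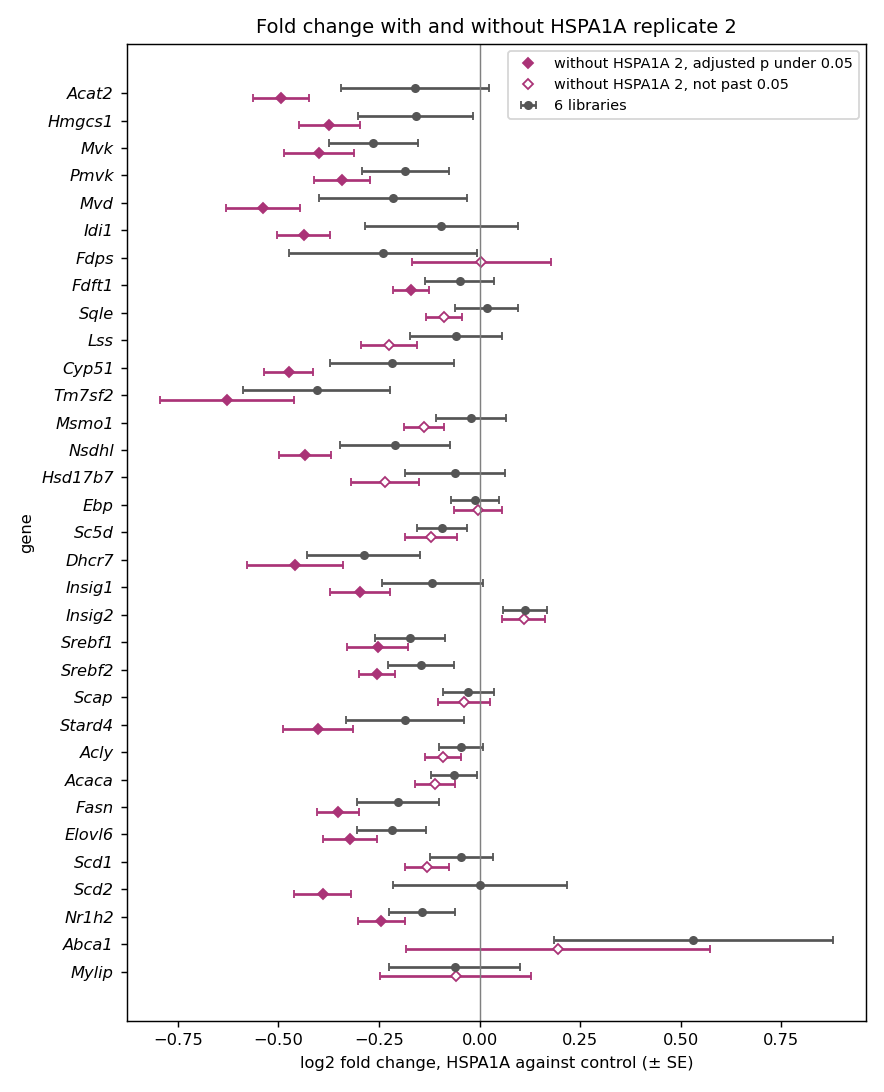
Log2 fold change (± SE) of each tested member over 6 libraries (grey circles) and without HSPA1A replicate 2 (purple diamonds, filled where the adjusted p was under 0.05). No grey point passed the threshold, and 19 purple points did, each below 0.

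The mevalonate steps turn acetyl-CoA into the isoprenoid units of cholesterol. None of the 7 genes was called over 6 libraries, 7 of 7 had a log2 fold change below 0, and 6 were called lower without HSPA1A replicate 2, all but Fdps. Their median was -0.18 over 6 libraries and -0.40 without HSPA1A replicate 2. By library, the median against the control mean was -0.46, 0.20 and -0.42 in HSPA1A replicates 1 to 3. Hmgcs1, which makes HMG-CoA, spans chr13:119690379-119708260 (GRCm38, as for all gene positions here). Its levels were 98.7, 81.6 and 89.8 CPM in the controls (replicates 1 to 3 in order) and 63.8, 103 and 75.1 CPM in HSPA1A replicates 1 to 3. Replicates 1 and 3 lay below all controls and replicate 2 above them, so the groups overlapped. The log2 fold change was -0.16 ± 0.14 (SE, adjusted p = 0.798) over 6 libraries and -0.37 ± 0.076 (SE, adjusted p = 0.00608) without HSPA1A replicate 2, both by edgeR's quasi-likelihood test. Idi1, the isomerase that makes dimethylallyl diphosphate (chr13:8885501-8892451), showed the same order more widely, at 67.1, 62.96 and 61.6 CPM in the control and 43.4, 84.7 and 50.8 CPM in the HSPA1A ones. HSPA1A replicate 2 held 1.80 times the mean of replicates 1 and 3. Its log2 fold change was -0.10 ± 0.19 (SE, adjusted p = 0.911), and -0.44 ± 0.066 (SE, adjusted p = 0.000932) without that library.

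Mvd, the decarboxylase that closes the mevalonate branch (chr8:122433601-122443422), was at 14.8, 14.5 and 15.5 CPM in the control and 10.8, 17.8 and 9.73 CPM in the HSPA1A ones. Controls were tight here, within 1.07 times of each other, while HSPA1A replicate 2 held 1.74 times the mean of the other HSPA1A libraries. The log2 fold change was -0.22 ± 0.19 (SE, adjusted p = 0.792) and -0.54 ± 0.092 (SE, adjusted p = 0.00206) without HSPA1A replicate 2. Mevalonate kinase, Mvk, was at 17.9, 18.6 and 19.8 CPM in the control and 15.2, 18.4 and 13.2 CPM in the HSPA1A ones. Its replicate 2 fell within the control range and not above it, and its 95% interval ran from -0.51 to -0.018 (unadjusted p = 0.0381, adjusted p = 0.553). Pmvk, the next kinase, was at 27.8, 27.1 and 27.5 CPM in the control and 22.8, 29.1 and 20.5 CPM in the HSPA1A ones. Acat2, the thiolase that makes acetoacetyl-CoA, was at 28.5, 26.3 and 28.9 CPM in the control and 19.7, 34.97 and 19.95 CPM in the HSPA1A ones, with the order of Idi1. Without HSPA1A replicate 2 the log2 fold changes were -0.40 for Mvk, -0.34 for Pmvk and -0.49 for Acat2, all 3 called. Over 6 libraries they were -0.26, -0.18 and -0.16.

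Fdps, which joins the isoprenoid units to farnesyl diphosphate, ran the other way. It was at 5.30, 3.85 and 5.41 CPM in the control and 4.27, 2.70 and 5.46 CPM in the HSPA1A ones, with its lowest value in HSPA1A replicate 2. Its reads were few, from 73 to 143 a library. GENCODE M21 places the protein-coding gene Gm43738 over it on the same strand, so reads in the shared part may not have been assigned to Fdps, and its level is uncertain. Over 6 libraries its log2 fold change was -0.24 ± 0.23 (SE, adjusted p = 0.815), and without HSPA1A replicate 2 it was 0.0045 ± 0.17 (SE, adjusted p = 0.992), so the lower value rests on that library.

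In the squalene and sterol steps 10 of 11 genes had a log2 fold change below 0 over 6 libraries and 0 were called. Their median was -0.061 over 6 libraries and -0.23 without HSPA1A replicate 2, where 5 were called lower: Fdft1, Cyp51, Tm7sf2, Nsdhl and Dhcr7. By library, the median against the control mean was -0.21, 0.17 and -0.18 in HSPA1A replicates 1 to 3. Cyp51, lanosterol demethylase (chr5:4081145-4104746), was at 111, 101 and 109 CPM in the control and 71.3, 122 and 82.5 CPM in the HSPA1A ones. Both low HSPA1A libraries were well under the controls and replicate 2 was over them. The log2 fold change was -0.22 ± 0.15 (SE, adjusted p = 0.734), and -0.47 ± 0.061 (SE, adjusted p = 0.000319) without HSPA1A replicate 2. Nsdhl, the dehydrogenase of sterol demethylation, was at 53.5, 46.4 and 51.8 CPM in the control and 37.02, 56.02 and 37.8 CPM in the HSPA1A ones, with a log2 fold change of -0.21 ± 0.14 (SE, adjusted p = 0.706), and of -0.43 ± 0.065 (SE, adjusted p = 0.000912) without HSPA1A replicate 2. Tm7sf2, a sterol reductase (chr19:6062821-6068373), was at 4.39, 5.21 and 4.47 CPM in the control and 2.78, 4.51 and 3.27 CPM in the HSPA1A ones. Its HSPA1A replicate 2 lay inside the control range. It had the lowest fold change of the members over 6 libraries, -0.40 ± 0.18 (SE, adjusted p = 0.58) on the log2 scale, and was at -0.63 ± 0.17 (SE, adjusted p = 0.0257) without HSPA1A replicate 2. Its reads were few, from 65 to 130 a library, and it overlaps Vps51 on the same strand.

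Dhcr7, the reductase of the last step to cholesterol, was at 9.05, 8.46 and 8.44 CPM in the control and 6.83, 8.60 and 5.75 CPM in the HSPA1A ones. Replicate 2 again lay within the controls, and the log2 fold change was -0.29 ± 0.14 (SE, adjusted p = 0.608) by edgeR's quasi-likelihood test, and -0.46 ± 0.12 (SE, adjusted p = 0.0246) without it. The abundant enzymes differed less. Sqle was at 253, 239.8 and 243 CPM in the control and 228, 284 and 233 CPM in the HSPA1A ones. The order matched that of Cyp51 but with smaller gaps, and the log2 fold change was 0.017 ± 0.079 (SE, adjusted p = 0.959), -0.016 when scaled by library totals alone, and -0.088 ± 0.045 (SE, adjusted p = 0.239) without HSPA1A replicate 2. Fdft1 had controls at 188, 189 and 189 CPM and HSPA1A libraries at 163, 212 and 172 CPM. It was called lower without HSPA1A replicate 2 at a log2 fold change of -0.17, against -0.050 over 6 libraries. Msmo1, Lss, which closes the sterol rings, and Hsd17b7, a sterol ketone reductase, had the same order over libraries and were not called in either fit. Lss ranged from 19.1 to 27.3 CPM, Hsd17b7 from 12.5 to 18.1 CPM and Msmo1 from 180.3 to 237 CPM over the 6 libraries. The log2 fold changes of Msmo1, Lss and Hsd17b7 without HSPA1A replicate 2 were -0.14, -0.23 and -0.24, against -0.020, -0.057 and -0.061 over 6 libraries.

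Ebp, a sterol isomerase, and Sc5d, a sterol desaturase, varied little. Ebp was at 45.6, 48.8 and 43.5 CPM in the control and 47.01, 45.4 and 44.5 CPM in the HSPA1A ones, with the groups overlapping and a 95% interval of the log2 fold change from -0.14 to 0.12. Sc5d was at 27.4, 28.8 and 27.5 CPM in the control and 25.1, 27.3 and 26.2 CPM in the HSPA1A ones. All HSPA1A libraries were below all controls, by a small amount that did not pass the test (log2 fold change -0.092 ± 0.062 SE, adjusted p = 0.721). The log2 fold changes of Ebp and Sc5d without HSPA1A replicate 2 were -0.0041 and -0.12, and neither was called.

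**Figure D4:**
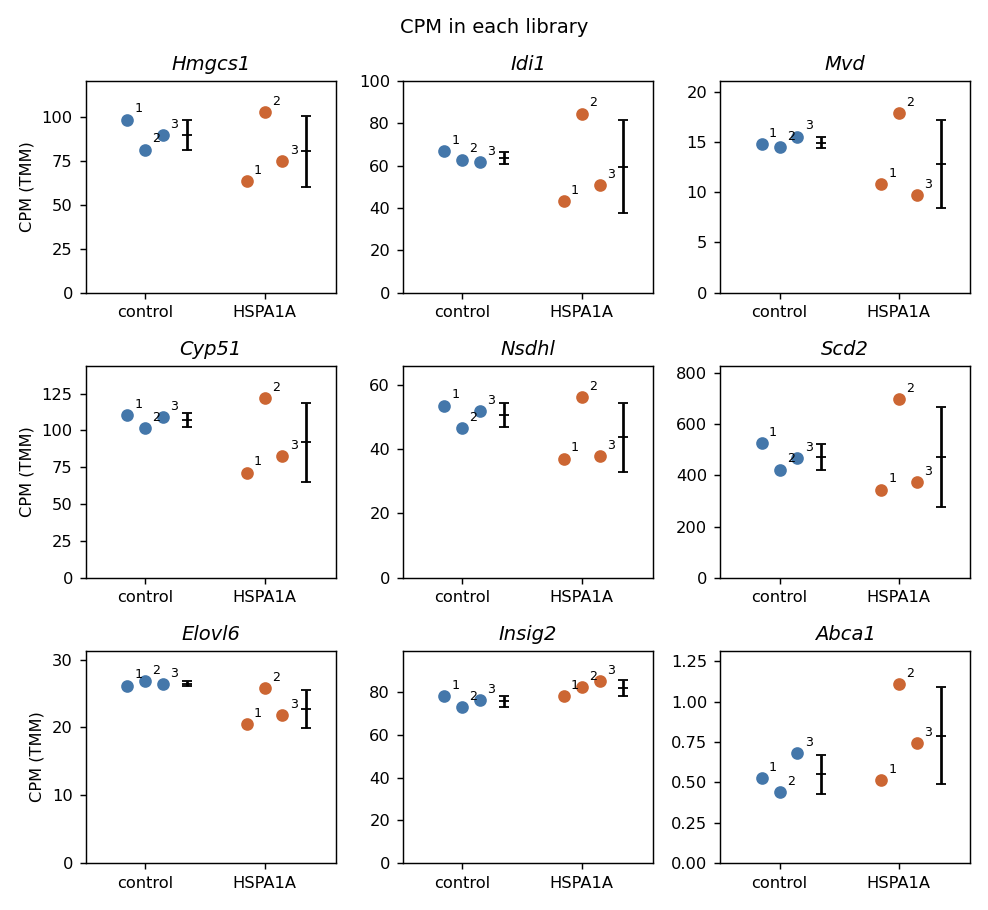
CPM of 9 members in each library, with the replicate number beside each point and the group mean ± SD (n = 3) in black; every axis starts at 0. In Hmgcs1, Idi1, Mvd, Cyp51, Nsdhl and Scd2 HSPA1A replicates 1 and 3 lie below the controls and replicate 2 above them, while Insig2 and Abca1 do not show that order.

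The genes of SREBP control and sterol transport gave unequal values. In 5 of 6 genes there was a log2 fold change below 0 and 0 were called over 6 libraries. Insig1, Srebf1, Srebf2 and Stard4 were called lower without HSPA1A replicate 2, and Insig2 and Scap were not. Their median was -0.13 over 6 libraries and -0.25 without HSPA1A replicate 2. Insig1, itself an SREBP target that holds SCAP in the endoplasmic reticulum (chr5:28071363-28078662), was at 43.1, 39.4 and 36.9 CPM in the control and 30.1, 45.2 and 34.6 CPM in the HSPA1A ones. It followed the enzymes, with a log2 fold change of -0.12 ± 0.12 (SE, adjusted p = 0.829) and of -0.30 ± 0.075 (SE, adjusted p = 0.0212) without HSPA1A replicate 2. Insig2, which retains SCAP in the same way (chr1:121304353-121332589), was at 78.1, 72.98 and 76.4 CPM in the control and 78.1, 82.6 and 85.3 CPM in the HSPA1A ones. Its HSPA1A libraries 2 and 3 were above all controls and replicate 1 was just under the highest control. Its log2 fold change of 0.11 ± 0.055 (SE, adjusted p = 0.608) had a 95% interval from -0.0093 to 0.23 and was 0.11 without HSPA1A replicate 2. The difference between the paralogs' fold changes was not tested. Srebf2 was at 175, 168 and 171 CPM in the control and 146, 178 and 141 CPM in the HSPA1A ones. Replicates 1 and 3 lay under the controls and replicate 2 just over them, and the gene was called lower without HSPA1A replicate 2 (log2 fold change -0.26 ± 0.045 SE, adjusted p = 0.0025).

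Srebf1, whose product drives mainly fatty acid genes, was at 25.3, 23.7 and 23.95 CPM in the control and 21.9, 23.9 and 18.9 CPM in the HSPA1A ones. Its replicate 2 lay within the controls. The log2 fold change was -0.17 ± 0.087 (SE, adjusted p = 0.612), and -0.25 ± 0.076 (SE, adjusted p = 0.0464) without HSPA1A replicate 2. It overlaps Rai1 on the other strand. The library kit was stranded per the labels, but the strand setting of the counting is not stated. In all, 12 members overlap a gene on the other strand and 10 on the same strand, small RNA genes included. Scap was at 36.1, 36.6 and 37.01 CPM in the control and 37.96, 36.4 and 33.1 CPM in the HSPA1A ones and differed by less than the spread of its libraries, with a 95% interval of the log2 fold change from -0.17 to 0.11 and a fold change of -0.039 on that scale without HSPA1A replicate 2. Stard4, which carries sterols between membranes, followed the enzymes at 27.1, 24.2 and 24.1 CPM in the control and 17.1, 28.1 and 20.9 CPM in the HSPA1A ones. Its log2 fold change was -0.19 ± 0.15 (SE, adjusted p = 0.766), and -0.40 ± 0.088 (SE, adjusted p = 0.00904) without HSPA1A replicate 2, by edgeR's quasi-likelihood test.

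In the fatty acid list 5 of 6 genes had a log2 fold change below 0 over 6 libraries and 0 were called. Fasn, Elovl6 and Scd2 were called lower without HSPA1A replicate 2. Their median was -0.054 over 6 libraries and -0.23 without HSPA1A replicate 2. Scd2 differed most between libraries (chr19:44293674-44306864). It was at 526, 423 and 468 CPM in the controls (replicates 1 to 3 in order) and 345, 698 and 375 CPM in HSPA1A replicates 1 to 3. HSPA1A replicate 2 held 1.94 times the mean of replicates 1 and 3, the widest ratio of the 33 tested members, and the control libraries themselves differed by 1.24 times. Over 6 libraries these values averaged to a log2 fold change of 0.0019 ± 0.22 (SE, adjusted p = 0.999) with a 95% interval from -0.48 to 0.48, and to -0.027 when scaled by library totals alone. Without HSPA1A replicate 2 it was -0.39 ± 0.071 (SE, adjusted p = 0.00296). Scd1, its neighbour on chromosome 19 (chr19:44394455-44407879), was steadier, at 429, 377 and 409 CPM in the control and 379.7, 439 and 359.6 CPM in the HSPA1A ones. The log2 fold change of Scd1 was -0.045 ± 0.078 (SE, adjusted p = 0.9) and -0.13 without HSPA1A replicate 2. The paralogs are similar in sequence, and how shared reads were assigned is not stated.

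Elovl6, which elongates palmitate (chr3:129532355-129638495), was at 26.2, 26.8 and 26.4 CPM in the control and 20.5, 25.8 and 21.8 CPM in the HSPA1A ones. All HSPA1A libraries were below all controls, replicate 2 by the least. Its log2 fold change of -0.22 ± 0.086 (SE, adjusted p = 0.528) had the smallest p of the members (unadjusted p = 0.028, edgeR) and was -0.32 ± 0.067 (SE, adjusted p = 0.00679) without HSPA1A replicate 2. Fasn, fatty acid synthase, was at 113, 108 and 107 CPM in the control and 89.7, 113 and 81.2 CPM in the HSPA1A ones. Here replicate 2 was just above the highest control, and the log2 fold change was -0.20 ± 0.10 (SE, adjusted p = 0.612) over 6 libraries and -0.35 ± 0.053 (SE, adjusted p = 0.000932) without it. Acly, which supplies cytosolic acetyl-CoA, and Acaca, which makes malonyl-CoA, differed little. Acly ranged from 104 to 115 CPM, and Acaca was at 72.5, 71.2 and 69.97 CPM in the control and 67.1, 72.7 and 64.7 CPM in the HSPA1A ones. Their log2 fold changes were -0.046 and -0.063 over 6 libraries and -0.091 and -0.11 without HSPA1A replicate 2, where neither was called.

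The LXR side was thin. Abca1, a cholesterol exporter, had 14, 11 and 18 reads in the control and 12, 30 and 18 reads in the HSPA1A libraries, or 0.526, 0.441 and 0.681 CPM in the control and 0.512, 1.11 and 0.745 CPM in the HSPA1A ones. HSPA1A replicate 2 was highest and the groups overlapped, with a log2 fold change of 0.53 ± 0.35 (SE, adjusted p = 0.709) and a 95% interval from -0.24 to 1.30. Without HSPA1A replicate 2 the log2 fold change of Abca1 was 0.19 ± 0.38 (SE, adjusted p = 0.805). Mylip, a ubiquitin ligase that degrades lipoprotein receptors, was at 3.31, 2.53 and 2.84 CPM in the control and 2.78, 2.77 and 2.77 CPM in the HSPA1A ones. Its HSPA1A libraries were nearly equal and lay inside the control range, with a log2 fold change of -0.062 ± 0.16 (SE, adjusted p = 0.934), and of -0.059 without HSPA1A replicate 2. Abcg1, another exporter, had 1 or 2 reads in each control library and 4, 0 and 0 in the HSPA1A libraries, too few to compare. Nr1h3 had 3 to 12 reads a library. Nr1h2 was at 42.9, 45.3 and 45.2 CPM in the control and 36.1, 45.7 and 38.8 CPM in the HSPA1A ones. It followed the order of the sterol enzymes, with a log2 fold change of -0.14 ± 0.081 (SE, adjusted p = 0.657) and of -0.24 ± 0.058 (SE, adjusted p = 0.0155) without HSPA1A replicate 2. GENCODE lists a pseudogene of it, Nr1h2-ps, so shared reads make its level uncertain.

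SREBP targets were then set against LXR targets in each library, as the median log2 CPM minus the mean of the controls. Over the 20 SREBP targets the median was -0.32, 0.18 and -0.28 in HSPA1A replicates 1 to 3, and 0.030, -0.026 and 0.0022 in the controls. Replicates 1 and 3 lay below the controls and replicate 2 above them. The LXR targets with enough reads were Abca1 and Mylip, and their median was -0.059, 0.44 and 0.18 in HSPA1A and 0.080, -0.22 and 0.14 in the controls. The SREBP median minus the LXR median was -0.26, -0.27 and -0.46 in HSPA1A and -0.050, 0.19 and -0.14 in control libraries. All HSPA1A differences were below all control differences, but each control was part of the mean it was set against. Set against the mean of the remaining controls, control replicates 1 to 3 were at -0.075, 0.29 and -0.20, closer to the HSPA1A values. The LXR side rests on 2 genes with at most 88 reads, and the control differences spread over both sides of 0. The fitted median over the SREBP targets was -0.16 with all 6 libraries and -0.36 without HSPA1A replicate 2, where 13 of the 20 were called lower. With Yam1 as a covariate it was 0.044, with 0 members called. The fitted median over Abca1 and Mylip was 0.24 with all 6 libraries and 0.067 without HSPA1A replicate 2. Over the 10 other tested genes of the LXR pathway, receptor partners and corepressors included, it was 0.027 and 0.022. No p is given for these medians, which describe the lists.

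**Figure D5:**
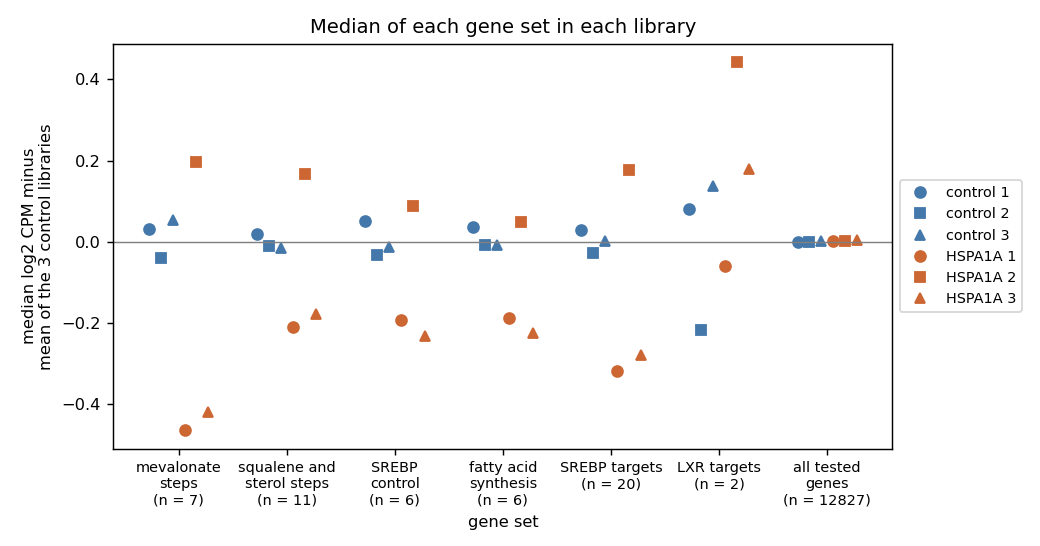
Median log2 CPM minus the control mean for each gene set in each library; blue is control, orange is HSPA1A, and circles, squares and triangles are replicates 1, 2 and 3. For SREBP targets HSPA1A replicates 1 and 3 lie at -0.32 and -0.28 and replicate 2 at 0.18, while all tested genes stay near 0 in every library.

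Of 79 other genes of sterol, fatty acid and LXR pathways, 75 were listed and 66 tested. Over 6 libraries 0 were called in either direction by edgeR's quasi-likelihood test, against 0.156% of all tested genes lower and 0.0234% higher. At an unadjusted p under 0.05 there were 5 of the 66, lower and higher together. Of all tested genes 4.26% were lower at that threshold, and the share higher was not counted. The median log2 fold change of the 66 was -0.0036. The 3 smallest p-values belonged to Lpl, Tecr and Slc25a1. Lpl, lipoprotein lipase and an LXR target, was at 29.6, 30.7 and 29.5 CPM in the control and 37.3, 33.9 and 42.1 CPM in the HSPA1A ones, higher in every HSPA1A library than in any control (log2 fold change 0.34 ± 0.078 SE, adjusted p = 0.264). Tecr, a reductase of fatty acid elongation, was at 117, 117 and 117 CPM in the control and 93.2, 107 and 91.97 CPM in the HSPA1A ones. It was lower in every HSPA1A library (log2 fold change -0.27 ± 0.063 SE, adjusted p = 0.274). Slc25a1, the mitochondrial citrate exporter, was at 50.4, 53.5 and 51.4 CPM in the control and 43.4, 50.4 and 41.02 CPM in the HSPA1A ones and had a log2 fold change of -0.20 (adjusted p = 0.517). Without HSPA1A replicate 2, 9 of the 66 were called lower, 5 in the sterol and 4 in the fatty acid list. There 2 were called higher, Lpl and Acsl1, which activates fatty acids. Of all tested genes 4.94% were called lower and 5.27% higher without that library. The log2 fold changes in that fit were 0.41 for Lpl, -0.34 for Tecr and -0.29 for Slc25a1. Acsl1 was named after its values were seen. Acss2, which makes acetyl-CoA from acetate and was named after its values were seen, was at 4.92, 4.97 and 5.41 CPM in the control and 2.86, 7.64 and 3.35 CPM in the HSPA1A ones and had the order of Scd2. Fads2, a fatty acid desaturase named in the same way, was at 30.8, 30.8 and 26.00 CPM in the control and 21.7, 32.98 and 22.4 CPM in the HSPA1A ones, with the same order.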

How the data were processed

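The authors deposited whole read counts per gene for 22913 genes and FPKM, scaled by gene length and library size, for 22833 genes. Per the submitters' processing notes, the tools were bcl2fastq, TopHat2 and edgeR on GRCm38. The read counter, its strand setting and annotation are not stated in the labels or headers. Reads shared by paralogs or overlapping genes are therefore uncertain.

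Counts were normalised by TMM in edgeR 4.0.16 (R 4.3.3), filtered with filterByExpr (minimum count 10, minimum total 15), leaving 12827 genes, and tested with glmQLFit and glmQLFTest without covariates, with Benjamini-Hochberg adjustment over all tested genes and a threshold of 0.05. Log2 CPM per library used a prior count of 2. On counts simulated for this comparison over 12827 genes, 79.5% of 1.5-fold changes, 91.3% of 2-fold changes and 0.0719% of unchanged genes passed. The simulated spread followed the trend over all genes, and no simulated library stood apart as HSPA1A replicate 2 did. These shares therefore do not give the power for members with a wide spread, such as Scd2 (SE 0.22) and Idi1 (SE 0.19). Nor do they give it for changes under 1.5-fold, the smallest simulated. The lowest member over 6 libraries, Tm7sf2, was 1.32-fold down. No 2 libraries were copies, with chi-square per degree of freedom from 2.68 to 26.1.

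The members, lists, named genes and alternatives were chosen with earlier results of these data known. The rule gave library values for up to 3 members per role by p and for 10 fixed members; of the other pathway genes, those called or else the 3 with the smallest p. Alternatives used DESeq2 1.42.0, limma 3.58.1 (voom, and trend on log2 FPKM with a pseudocount of 1 or 0.1), other normalisations and filters, a replicate block, Yam1 (log2 CPM) as a covariate, and each library left out. Gene coordinates are from GENCODE M21 (GRCm38), in which 35 of 35 members were found. Through RefSeq synonyms 3 pathway names were matched.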

Additional observations from a re-analysis of the deposited data

How the results depend on the processing

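Members called lower numbered 0 in each alternative except the fit without HSPA1A replicate 2, which called 19; leaving out each library gave 0 to 19 lower and 0 higher. The median over the SREBP targets stayed below 0 except with the Yam1 covariate (0.044), and ran from -0.36 to -0.033 as each library was left out. The fatty acid median ran from -0.23 without HSPA1A replicate 2 to -0.019 without HSPA1A replicate 3. With the Yam1 covariate the medians were also above 0 for the mevalonate (0.033), sterol (0.076), SREBP control (0.013) and fatty acid (0.0042) lists. The LXR receptor and target median was -0.062 over Nr1h2, Abca1 and Mylip, and 0.042 with the Yam1 covariate. Other filters changed which genes entered it: it was 0.062 with no filter on low counts, over all 5 genes, and over Nr1h2 alone -0.14 with 5 CPM in 3 libraries and -0.20 with a mean FPKM of at least 1. It ran from -0.060 to 0.24 with a library left out. The SREBP minus LXR difference was -0.23 with no filter on low counts, -0.21 with log2(FPKM + 1) and -0.27 with log2(FPKM + 0.1). The median of the LXR targets themselves was 0.24 and turned to -0.015 with log2(FPKM + 1). Neither the LXR target median nor the difference had a value under the filters of 5 CPM or of a mean FPKM of at least 1, which left no LXR target.

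Over all genes, 20 were lower and 3 higher. DESeq2 gave 38 and 26, no filter on low counts 111 and 94, the Yam1 covariate 8 and 3. Higher genes numbered 1 with RLE size factors, with library totals alone or with the 5 CPM filter, and 0 with each FPKM fit. Leaving out a library gave 10 to 640 lower and 0 to 683 higher, the upper ends without HSPA1A replicate 2.

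Some named members changed sign, none of them called over 6 libraries. Sqle was -0.016 with library totals alone and -0.047 in the FPKM fits with a pseudocount of 1 (-0.047 with 0.1). Scd2 was -0.027 with library totals alone, -0.068 with limma-voom, -0.0042 with no filter, -0.071 with the replicate block and -0.12 in the FPKM fits with a pseudocount of 1 (-0.13 with 0.1). With the Yam1 covariate the values were 0.010 for Pmvk, 0.17 for Mvd, 0.015 for Nsdhl, 0.042 for Nr1h2, 0.055 for Insig1, 0.033 for Hmgcs1 and 0.021 for Scd1. With a library left out, Sqle from -0.088 to 0.076, Scd2 from -0.39 to 0.18, Scd1 from -0.13 to 0.016, Insig1 from -0.30 to 0.0048 and Mylip from -0.15 to 0.047 were the ranges. The causes were not tested.

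The correlations computed to look for pairing of same-numbered libraries were -0.10, -0.0015 and 0.085 for replicates 1 to 3. They are not correlations of the levels themselves, which were similar in all libraries. They showed no clear pairing by replicate number but do not settle whether the samples were paired. With the replicate block 13 genes were lower and 3 higher, and 0 members were called. Depth limits Abca1, Nr1h3 and Abcg1, with at most 30 reads a library.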
